A study of Homo sapiens with 4 samples.

Results

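The genes described here are the NRF2 pathway and the iron storage genes it is known to control: NFE2L2, KEAP1, NQO1, HMOX1, GCLC, GCLM, TXNRD1, SRXN1, FTH1 and FTL. They were taken by gene symbol from tables of 16878 genes, and all 10 were present and above the filter on low values, a mean of at least 1 FPKM (fragments normalized to transcript length and library size). The tables come from RNA-seq of PANC-1 cells, an established human pancreatic duct carcinoma line, 48 h after transfection with siSIRT1, a small interfering RNA against the NAD-dependent deacetylase SIRT1, or with a control, named only Control in the labels. Each group has 2 libraries, and the comparison asks which transcripts change when SIRT1 is depleted. A single siRNA sequence in 1 cell line was used, so that effects of the sequence itself and of SIRT1 loss cannot be told apart. The labels do not say whether the libraries of a group came from separate cultures, so the p-values measure the spread between these libraries, which may be technical.

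NRF2, the product of NFE2L2, is a transcription factor that switches on antioxidant and detoxification genes through the antioxidant response element in their regulatory DNA. In unstressed cells KEAP1 holds NRF2 and hands it to the CUL3 ubiquitin ligase for degradation, and oxidants or electrophiles that modify the cysteines of KEAP1 let NRF2 accumulate. NRF2 is therefore governed mainly at the protein level, which RNA-seq does not measure, and its activity is usually read from the transcripts of its targets. In pancreatic cancer the pathway is known for protecting tumor cells from oxidative stress and for drug resistance.

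The genes did not move as 1 block. NQO1, GCLM and TXNRD1 fell to 86.3%, 79.4% and 85.5% of Control, while NFE2L2, HMOX1 and SRXN1 stayed between 96.6% and 102% of Control and did not pass the test. KEAP1, GCLC and both ferritin chains lay at 114% to 125% of Control, also without passing. Of the 10 genes, 3 passed an adjusted p under 0.05 in limma's test across all genes, 0 higher and 3 lower. Among the 12191 genes tested 37.1% were called, 24.0% higher and 13.1% lower. For 8 of the 10 the libraries of 1 group lay wholly above or below those of the other, against 69.0% of all genes. A further call rule was a fold change above 1.2 with an unadjusted p below 0.001. By it 0 of the 10 passed, against 18.1% of all genes. Without adjustment, 7 of the 10 and 5696 of the 12191 genes had a p under 0.05. The median log2 fold change of the 10 was 0.00, and that of all genes tested was 0.07. Leaving out either Control library removed all 3 calls, and 0 of the 10 then passed by limma, with 0 at an unadjusted p under 0.05 without Control 1 and 2 without Control 2. Without siSIRT1 1 the number was 1 (NQO1), and without siSIRT1 2 it was 4 (NQO1, TXNRD1, FTH1 and FTL). Over all genes, the number called fell from 4521 to 2744 without Control 1 and to 2691 without Control 2.

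**Figure D1:**
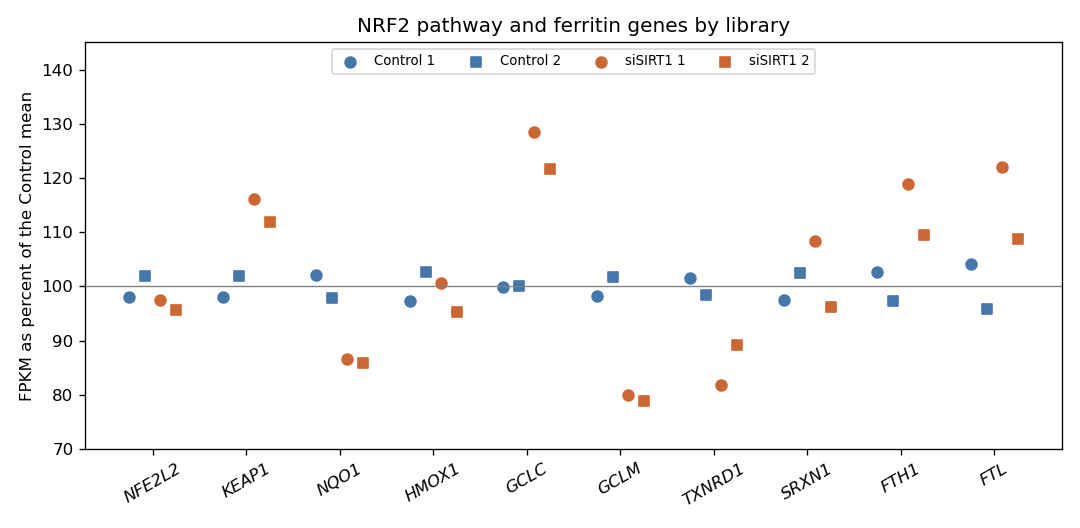
FPKM of each gene in each library (y axis, as percent of the Control mean), with circles for replicate 1, squares for replicate 2, blue for Control and orange for siSIRT1. NQO1, GCLM and TXNRD1 lie at 78.8% to 89.2% in both siSIRT1 libraries, and KEAP1, GCLC, FTH1 and FTL at 108.7% to 128.4%.

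The siRNA, printed because all differences below rest on it, is listed with 19 bases.
siSIRT1: gugucaugguuccuuugca
The knockdown was checked before the other genes. SIRT1 stood at 10.46 and 10.25 FPKM in Control against 1.80 and 2.05 FPKM in siSIRT1 (log2 fold change -1.96 ± 0.11, adjusted p = 1.33e-05 by limma). Depth estimated from the steps of low values was 8970000 and 9090000 reads in Control against 8710000 and 9040000 in siSIRT1. Rises made up 64.8% of all calls, but 49.6% to 53.3% after quantile, upper-quartile or median-of-ratios scaling, so a small rise here can depend on the scaling. Of 5 epithelial markers, KRT8, KRT18 and KRT19 were at 312.82 FPKM or more in every library, while EPCAM was at 5.34 to 11.21 FPKM and CDH1 at 3.05 to 3.89 FPKM. KRT18 and KRT19 were called higher in siSIRT1 (log2 fold change 0.26 and 0.25, adjusted p = 0.035 and 0.0178 by limma), and KRT8, EPCAM and CDH1 did not pass. VIM, the mesenchymal filament vimentin, fell from 2123 ± 106 to 1465 ± 54.3 FPKM (log2 fold change -0.53, adjusted p = 0.00126). Of 12 markers of other cell types, 4 had no row, 0 were at 0 in every library and 6 were below 1 FPKM in every library, among them PECAM1, PRSS1 and DCN. The summed level of those with a row was 62.95 to 65.05 FPKM in Control and 41.18 to 44.12 FPKM in siSIRT1, and 2.09 to 2.18 and 1.78 to 2.09 FPKM without CD68, a lysosomal membrane protein known from macrophages. CD68 fell by 0.59 on the log2 scale (adjusted p = 0.0003). The part of these shifts in the results below was not tested. In such bulk samples, fewer cells expressing a gene and less RNA per cell cannot be told apart.

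The start-site windows of 8 of the 10 genes were found in the RefSeq promoter table (GRCh38.p14), 11 windows of 250 bases before and 50 after a start, and FTH1 and HMOX1 were not in it. TGACNNNGC, the core of the antioxidant response element, was searched on both strands. It stood in 4 of these 11 windows, those of GCLM, KEAP1 and TXNRD1, and in 13.3% of all 35116 windows in the table. The 130 bases before each of these starts are shown because they join a gene that fell by 0.29 on the log2 scale (GCLM), a gene that fell by 0.22 (TXNRD1) and one that lay above Control without passing (KEAP1). Capitals mark the matches that lie wholly before the start, in the direction of the transcript.
GCLM, chr1:93909431-93909560, minus strand: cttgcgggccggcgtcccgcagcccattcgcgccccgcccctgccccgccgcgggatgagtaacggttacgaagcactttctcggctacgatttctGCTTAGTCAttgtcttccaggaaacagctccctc
KEAP1, chr19:10502772-10502901, minus strand: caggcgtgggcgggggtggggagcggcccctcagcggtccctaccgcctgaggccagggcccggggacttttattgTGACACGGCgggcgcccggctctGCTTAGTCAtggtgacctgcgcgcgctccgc
TXNRD1, first start, chr12:104215649-104215778, plus strand: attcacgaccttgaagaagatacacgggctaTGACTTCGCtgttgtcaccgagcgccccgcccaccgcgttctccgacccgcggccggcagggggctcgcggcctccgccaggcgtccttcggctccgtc
TXNRD1, second start, chr12:104286902-104287031, plus strand: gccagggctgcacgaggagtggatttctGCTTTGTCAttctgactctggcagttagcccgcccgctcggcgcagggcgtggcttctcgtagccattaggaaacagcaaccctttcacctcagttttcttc

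Read on the strand of the motif, GCLM and KEAP1 carried the same letters, TGACTAAGC, from 34 to 26 bases before the start of GCLM and from 31 to 23 bases before that of KEAP1. In TXNRD1 the first start also had a match that reaches across the start itself. The pattern TGAGNNNGC differs in 1 fixed letter and so never covers the same bases on the same strand. It stood in 5 of the 11 windows, those of GCLM, KEAP1, NFE2L2, NQO1 and TXNRD1, and in 18.3% of all windows. A share above that of all windows was thus not particular to TGACNNNGC. A match describes the letters and does not show binding, and elements outside the windows were not searched.

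The regulators stood on either side of Control, without passing the test. NFE2L2 (Entrez gene 4780, chromosome 2) was at 43.8 and 45.48 FPKM in Control against 43.55 and 42.66 FPKM in siSIRT1. The siSIRT1 values lay below both Control values by a margin smaller than the spread within Control. Its means were 44.6 ± 1.19 and 43.1 ± 0.629 FPKM (SD, n = 2 each), and its log2 fold change was -0.05 ± 0.06 (SE, 95% interval -0.19 to 0.09, adjusted p = 0.572 by limma). An NFE2L2 transcript change of more than 0.19 on the log2 scale in either direction lay outside this interval, which holds for the values without further scaling only. Under quantile, equal-sum, median-of-ratios and upper-quartile scaling the NFE2L2 log2 fold change was -0.136 to -0.11. It was not called under any of them (adjusted p of 0.142 to 0.206 by limma). KEAP1 (Entrez gene 9817, chromosome 19), the cysteine-rich sensor and substrate adaptor, was at 27.3 and 28.37 FPKM in Control against 32.34 and 31.16 FPKM in siSIRT1. Both siSIRT1 libraries were above both Control libraries. The means were 27.8 ± 0.757 and 31.8 ± 0.834 FPKM (log2 fold change 0.18 ± 0.07, 95% interval 0.03 to 0.34, adjusted p = 0.0616 by limma), short of the threshold, and the log2 fold change was 0.10 to 0.12 under the 4 scalings tried (quantile, equal sums, median-of-ratios and upper quartile). Within each library, the NFE2L2 level was 1.60 times the KEAP1 level in both Control libraries and 1.35 and 1.37 times in siSIRT1. Scaling by 1 factor per library leaves this ratio unchanged, which quantile normalization need not do. Its p was 0.333 by an exact two-sided permutation test, the smallest that 2 libraries against 2 can give.

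Glutamate-cysteine ligase carries out the first and rate-limiting step of glutathione synthesis, and its subunits stood on opposite sides of Control. GCLC (Entrez gene 2729, chromosome 6), the catalytic subunit, was at 5.08 and 5.09 FPKM in Control against 6.53 and 6.19 FPKM in siSIRT1. GCLM (Entrez gene 2730, chromosome 1), the modifier subunit that raises the activity of the enzyme, was at 7.62 and 7.88 FPKM in Control against 6.20 and 6.11 FPKM in siSIRT1. Neither gene's groups overlapped. GCLM fell from 7.75 ± 0.184 to 6.16 ± 0.0636 FPKM (log2 fold change -0.29 ± 0.10, 95% interval -0.52 to -0.06, adjusted p = 0.0496 by limma), just inside the threshold. GCLC went from 5.08 ± 0.00707 to 6.36 ± 0.24 FPKM (log2 fold change 0.27 ± 0.11, 95% interval 0.03 to 0.52, adjusted p = 0.0729), just outside it. The GCLM call was lost when any 1 of the 4 libraries was left out, with adjusted p of 0.0726 to 0.259, and over the 8 alternatives that keep all libraries its adjusted p ran from 0.0199 to 0.0724. These are the least expressed of the 10 genes, with an estimated 169 to 211 reads for GCLC and 259 to 344 for GCLM, and counting error alone is 7.69% for GCLC and 6.21% for GCLM at the lowest value. The ratio of GCLC to GCLM within a library was 0.667 and 0.646 in Control against 1.05 and 1.01 in siSIRT1, a log2 difference of 0.65. All libraries of a group lay on 1 side, and p was 0.333 by an exact two-sided permutation test, the smallest that 2 libraries against 2 can give. In Control the GCLM level was above the GCLC level, whereas in siSIRT1 the values of both genes overlapped, at 6.11 to 6.20 and 6.19 to 6.53 FPKM.

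**Figure D2:**
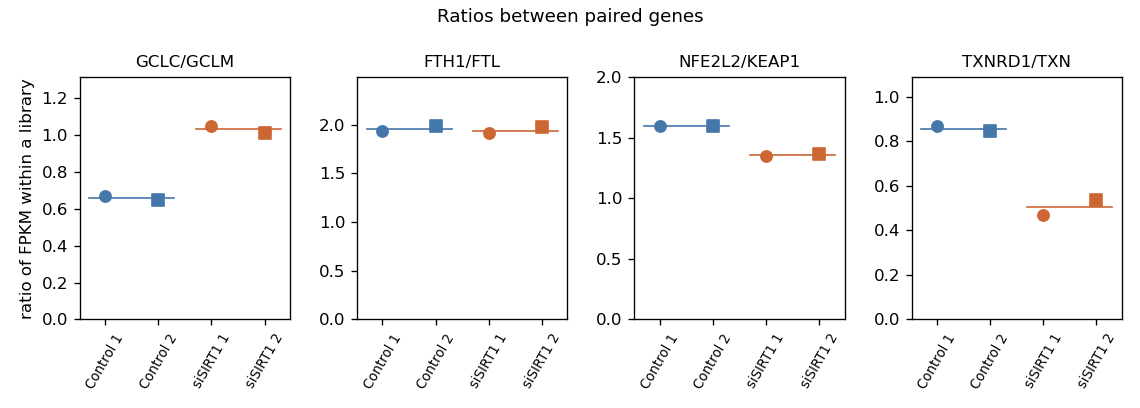
Ratio of FPKM values of gene pairs (y axis, starting at 0) within each library, with the group mean as a line. GCLC to GCLM went from 0.656 to 1.03, NFE2L2 to KEAP1 and TXNRD1 to TXN were lower in siSIRT1, and FTH1 to FTL overlapped at 1.91 to 1.99. The pairs were chosen after the values were seen.

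On the thioredoxin side of the pathway, the reductase gene TXNRD1 was lower and the sulfiredoxin gene SRXN1 was close to Control. Another reductase gene, TXNRD2, was called higher (log2 fold change 0.39, adjusted p = 0.0137 by limma). Over the alternatives with all libraries, the adjusted p of TXNRD2 ran from 0.00134 to 0.0611. TXNRD1 (Entrez gene 7296, chromosome 12), the cytosolic selenoenzyme that reduces thioredoxin with NADPH, was at 48.63 and 47.17 FPKM in Control against 39.23 and 42.71 FPKM in siSIRT1. Both siSIRT1 values were below both Control values. TXNRD1 fell from 47.9 ± 1.03 to 41.0 ± 2.46 FPKM (log2 fold change -0.22 ± 0.07, 95% interval -0.38 to -0.07, adjusted p = 0.0317 by limma). SRXN1 (Entrez gene 140809, chromosome 20), which rescues overoxidized peroxiredoxins, was at 12.7 and 13.33 FPKM in Control against 14.11 and 12.53 FPKM in siSIRT1. The siSIRT1 values of SRXN1 enclosed the Control values, and its log2 fold change of 0.03 ± 0.09 (95% interval -0.18 to 0.24, adjusted p = 0.828 by limma) took the opposite sign under quantile, upper-quartile, median-of-ratios and equal-sum scaling. The TXNRD1 call was lost without Control 1, Control 2 or siSIRT1 1, with adjusted p of 0.22, 0.137 and 0.0819, and over the alternatives with all libraries its adjusted p ran from 0.00987 to 0.0956. Its log2 fold change stayed negative in each of these fits.

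TXN, the thioredoxin that TXNRD1 reduces, went the other way. TXN was at 55.84 and 55.78 FPKM in Control against 83.41 and 79.26 FPKM in siSIRT1, and rose (log2 fold change 0.53 ± 0.06, adjusted p = 0.000297 by limma). The level of TXNRD1 relative to TXN was 0.871 and 0.846 in Control against 0.470 and 0.539 in siSIRT1, a log2 difference of -0.77. Groups did not overlap in this ratio, with an exact permutation p of 0.333.

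NQO1 (Entrez gene 1728, chromosome 16), which reduces quinones directly to hydroquinones and is among the most used readouts of NRF2, was at 52.58 and 50.36 FPKM in Control against 44.62 and 44.22 FPKM in siSIRT1. Both siSIRT1 libraries were below both Control libraries, and they lay closer to each other than the Control libraries did. NQO1 fell from 51.5 ± 1.57 to 44.4 ± 0.283 FPKM (log2 fold change -0.21 ± 0.06, 95% interval -0.35 to -0.07, adjusted p = 0.0277 by limma). The call was lost without Control 1 or Control 2, with adjusted p of 0.259 and 0.129, and held without either siSIRT1 library. Over the alternatives with all libraries the adjusted p ran from 0.00727 to 0.0919. HMOX1 (Entrez gene 3162, chromosome 22), the inducible heme oxygenase, was at 20.77 and 21.93 FPKM in Control against 21.47 and 20.34 FPKM in siSIRT1. Its groups overlapped, and its log2 fold change was -0.03 ± 0.07 (95% interval -0.20 to 0.14, adjusted p = 0.791 by limma). HMOX2, the constitutive heme oxygenase, rose from 28.3 ± 1.03 to 42.9 ± 5.59 FPKM (log2 fold change 0.58, adjusted p = 0.00155 by limma). The ratio of HMOX1 to HMOX2 was 0.716 and 0.796 in Control against 0.458 and 0.522 in siSIRT1.

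Ferritin, the shell that stores cellular iron, was by far the most abundant product of the 10 genes per length of transcript. FTH1 (Entrez gene 2495, chromosome 11), the heavy chain with ferroxidase activity, was at 972.24 and 920.24 FPKM in Control against 1125.08 and 1035.79 FPKM in siSIRT1. FTL (Entrez gene 2512, chromosome 19), the light chain that helps form the iron core, was at 502.18 and 462.43 FPKM in Control against 588.68 and 524.26 FPKM in siSIRT1. For each chain both siSIRT1 values were above both Control values, and siSIRT1 1 was the highest library. FTH1 went from 946 ± 36.8 to 1080.4 ± 63.1 FPKM (log2 fold change 0.19 ± 0.07, 95% interval 0.02 to 0.36, adjusted p = 0.0776 by limma). FTL went from 482 ± 28.1 to 556 ± 45.6 FPKM (log2 fold change 0.20 ± 0.08, 95% interval 0.03 to 0.38, adjusted p = 0.0696 by limma). Neither chain passed, and both passed without siSIRT1 2, with adjusted p of 0.0146 for FTH1 and 0.0151 for FTL. Under the 4 scalings the log2 fold change of FTH1 was 0.02 (quantile) to 0.13 (equal sums), and that of FTL 0.12 (median-of-ratios) to 0.17 (quantile). Over the alternatives with all libraries the adjusted p ran from 0.00704 to 0.476 for FTH1 and from 0.00328 to 0.374 for FTL. The ratio of FTH1 to FTL was 1.94 and 1.99 in Control against 1.91 and 1.98 in siSIRT1, so the chains kept overlapping ratios while both levels differed between libraries of a group. Both genes have many processed pseudogenes, and how shared reads were assigned is not given in the sources used here, so their levels are uncertain.

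Ferritin is also controlled at translation, by iron regulatory proteins that bind an iron responsive element at the start of its messages. The letters of its loop, searched as CAGTGN with a C ahead of it, 5 bases between them, in the 50 bases after each start and on the transcript strand, were found in FTL and in 1.67% of all windows in the table. The stretch is shown with the matched letters of the loop and its bulge in capitals, because a transcript value alone does not report on this control.
FTL, GRCh38.p14 chr19:48965332-48965358, plus strand: tgtctcttgCttcaaCAGTGTttggac

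**Figure D3:**
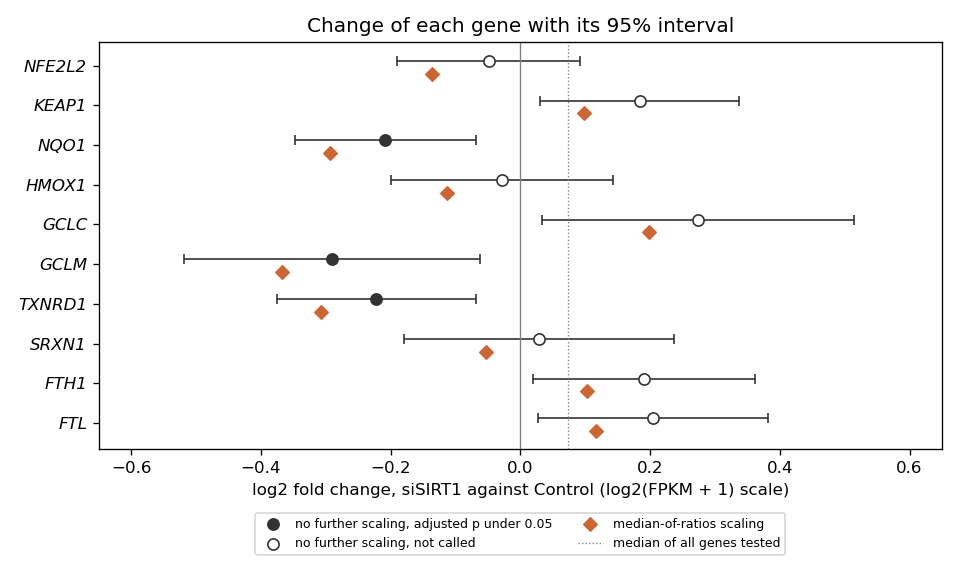
Log2 fold change of siSIRT1 against Control for each gene on the log2(FPKM + 1) scale (x axis), with bars for the 95% interval and filled circles for genes called at an adjusted p under 0.05. Orange diamonds are the same fold change after median-of-ratios scaling, and the dotted line is the median of all genes, 0.07. NQO1, GCLM and TXNRD1 are the called genes under either scaling, and SRXN1 changes sign.

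In Control the order of levels per length of transcript, from the highest, was FTH1, FTL, NQO1, TXNRD1, NFE2L2, KEAP1, HMOX1, SRXN1, GCLM and GCLC, and no neighbours in this order overlapped between the Control libraries. In siSIRT1, NFE2L2, at 42.66 to 43.55 FPKM, and TXNRD1, at 39.23 to 42.71 FPKM, overlapped, as did GCLC and GCLM. NQO1 stayed the third of the 10 in every library. From FTH1 to GCLC the Control means spanned 946 to 5.08 FPKM. An estimated 169 reads stood behind the least covered value, in GCLC, and 11005 behind the most covered, in FTH1.

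The other genes of the pathway were described from 7 lists of 165 genes, without the 10 above. Of these, 148 passed the filter and 85 were called, 60 higher and 25 lower, where 37.1% of all genes were called, 24.0% higher and 13.1% lower. The number called is a description, since the lists were chosen with results of these data known.

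Among 19 regulators of NRF2, 5 were called higher and 5 lower, 52.6% in all against 37.1% of all genes, with a median log2 fold change of -0.08. Without Control 2, 5 of the 10 calls in number were left. CUL3, the scaffold of the ligase that degrades NRF2, was at 15.78 and 15.76 FPKM in Control against 11.20 and 10.74 FPKM in siSIRT1, and fell by 0.49 on the log2 scale with an adjusted p of 0.00221 by limma. RBX1, the RING subunit of the same ligase, rose by 0.43 (adjusted p = 0.0102), although not without Control 2 (0.0705). SQSTM1, the autophagy receptor p62 that binds KEAP1 and removes it, was at 435.45 and 427.56 FPKM in Control against 353.09 and 334.11 FPKM in siSIRT1. It fell by 0.33 with an adjusted p of 0.00363, which became 0.0946 without Control 1 and 0.0718 without Control 2. DPP3, a peptidase that competes with NRF2 for KEAP1, rose by 0.39 (adjusted p = 0.00189). Members of the ligase and of the group that competes for KEAP1 were called in both directions.

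The small MAF proteins are the DNA-binding partners of NRF2. MAFK rose from 55.1 ± 0.41 to 73.3 ± 1.82 FPKM (adjusted p = 0.00103 by limma), and MAFF fell from 6.62 and 7.55 FPKM in Control to 4.54 and 5.05 FPKM in siSIRT1 (adjusted p = 0.0118), a value that was 0.115 without Control 2. MAFG had a log2 fold change of -0.14 and did not pass. The relative NFE2L3, a transcription factor of the same family, was at 56.21 and 53.11 FPKM in Control against 31.56 and 34.92 FPKM in siSIRT1, and fell by 0.70 with an adjusted p of 0.000205. BACH1, the heme-sensing repressor of HMOX1, was at 2.80 and 3.12 FPKM in Control against 2.60 and 4.01 FPKM in siSIRT1, with overlapping groups and an adjusted p of 0.672.

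**Figure D4:**
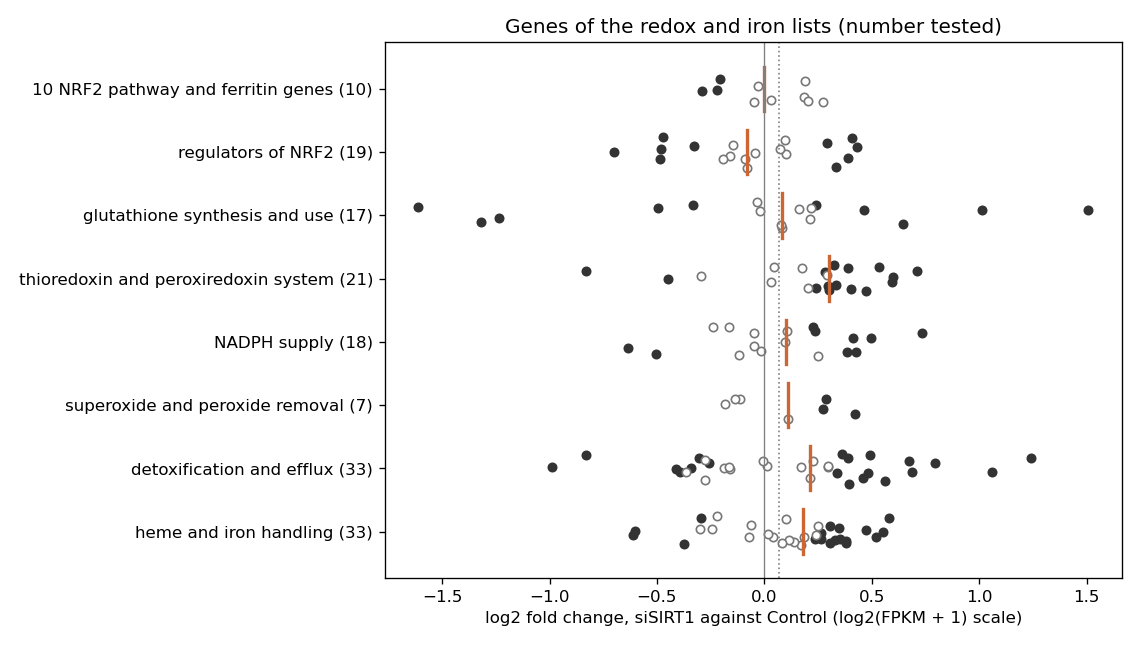
Log2 fold change of each tested gene (x axis, log2(FPKM + 1) scale) by list, with the number tested in brackets, filled points for genes called at an adjusted p under 0.05 and an orange bar at the list's median. The thioredoxin list has its median at 0.30 and the 10 genes at 0.00, beside 0.07 for all genes (dotted line).

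In glutathione synthesis and use, 5 of 17 genes were called higher and 5 lower, 58.8% in all against 37.1% of all genes. The median was 0.08. SLC7A11, the cystine importer that feeds glutathione synthesis, was at 9.92 and 10.91 FPKM in Control against 2.94 and 4.29 FPKM in siSIRT1. It fell to 34.7% of Control (log2 fold change -1.32 ± 0.15, adjusted p = 0.000307 by limma). ANPEP, an ectopeptidase that splits the cysteinylglycine released from glutathione, fell from 710.2 ± 1.41 to 232 ± 5.70 FPKM, and OPLAH, the 5-oxoprolinase of glutathione recycling, fell to 39.6% of Control. The called rises were led by GPX3, the secreted glutathione peroxidase, at 1.97 and 2.14 FPKM in Control against 8.72 and 6.76 FPKM in siSIRT1. CHAC2, which breaks glutathione down, and GGCT followed, with log2 fold changes of 1.01 and 0.64. GPX4, which removes lipid peroxides, was at 280 ± 10.2 and 273 ± 7.20 FPKM (adjusted p = 0.691). It passed, lower, with quantile normalization alone (adjusted p = 0.0281, within a range of 0.0281 to 0.768 over the alternatives).

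In the thioredoxin and peroxiredoxin system, 13 of 21 genes were called higher and 2 lower, 71.4% in all against 37.1% of all genes. The median was 0.30, or 0.21 after median-of-ratios scaling, where all genes had medians of 0.07 and -0.002. Without Control 2 the number called was 8. PRDX6, a peroxiredoxin that repairs oxidized lipids, rose from 33.4 ± 1.22 to 51.0 ± 0.94 FPKM, and GLRX, the cytosolic glutaredoxin, from 4.76 ± 0.587 to 7.67 ± 0.41 FPKM. TXNIP, the inhibitor of thioredoxin, fell from 14.7 ± 0.0495 to 10.5 ± 0.537 FPKM. The sestrins, stress-induced proteins that work with peroxiredoxins, were split. SESN1 rose by 0.71 on the log2 scale (adjusted p = 0.00552 by limma) and SESN2 fell by 0.83 (adjusted p = 7.67e-05).

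NADPH, which both systems consume, is supplied in the cytosol mainly by the pentose phosphate pathway, and 7 of 18 genes of its supply were called higher and 2 lower, 9 of 18 in all against 37.1% of all genes, with a median of 0.10. After median-of-ratios scaling 5 were called higher and 2 lower, with a median of 0.02. PGD, a dehydrogenase of the pathway, was at 74.50 and 74.29 FPKM in Control against 111.88 and 98.91 FPKM in siSIRT1, and rose (log2 fold change 0.49, adjusted p = 0.000958 by limma). RPIA, its isomerase, rose from 5.29 ± 0.361 to 9.52 ± 1.80 FPKM. The fallen genes were MTHFD2 and ALDH1L2, mitochondrial enzymes of folate metabolism, by 0.50 and 0.64, and ALDH1L2 was no longer called without Control 2 (adjusted p = 0.119) or without siSIRT1 1 (0.0734).

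Of 7 genes for removal of superoxide and peroxide, 3 were called higher and 0 lower, 42.9% in all against 37.1% of all genes. The list had a median of 0.11, and fewer genes were called without Control 1 or without Control 2. The direction of the list depended on the scaling: 2 were called higher and 3 lower under quantile, median-of-ratios and upper-quartile scaling, and 2 each way with equal sums, and the median was 0.02 after median-of-ratios scaling. SOD2, the mitochondrial superoxide dismutase, was at 42.63 and 46.87 FPKM in Control against 55.71 and 64.97 FPKM in siSIRT1 (adjusted p = 0.00543 by limma). SOD1, the cytosolic enzyme, was at 122% of Control with an adjusted p of 0.00442, which became 0.075 and 0.0731 without Control 1 and Control 2. AIFM2, which regenerates ubiquinol against lipid peroxidation, had an adjusted p of 0.0344 that became 0.0685 to 0.201 without Control 1, Control 2 or siSIRT1 2, and was not called under any of the 4 scalings, with a range of 0.0242 to 0.118 over the alternatives with all libraries.

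In detoxification and efflux, 13 of 33 tested genes were called higher and 7 lower, 60.6% in all against 37.1% of all genes. The list had a median of 0.21, and fewer genes were called without Control 1. OSGIN1, a growth inhibitor induced by oxidative stress, was at 2.35 and 2.33 FPKM in Control against 6.90 and 6.89 FPKM in siSIRT1, and rose by 1.24 on the log2 scale (adjusted p = 0.000109 by limma). MGST1, a membrane glutathione transferase, rose to 233% of Control and AKR1B1, aldose reductase, to 177%. The largest falls called in the list were those of export pumps for glutathione conjugates and drugs, but pumps were called in both directions. ABCC3 fell from 59.7 ± 1.34 to 29.6 ± 0.474 FPKM, ABCC4 from 32.4 ± 1.24 to 17.9 ± 2.86 FPKM, and ABCC1 from 225 ± 2.04 to 169 ± 4.70 FPKM. The pump ABCC2 rose from 0.84 and 0.68 FPKM in Control to 1.24 and 2.0 FPKM in siSIRT1 (log2 fold change 0.56, adjusted p = 0.0334 by limma). ABCG2, also a pump, rose by 0.36 (adjusted p = 0.021). Over the alternatives with all libraries, the adjusted p reached 0.0898 for ABCC2 and 0.0585 for ABCG2.

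Genes of heme and iron handling beside the ferritin chains had a median of 0.18. Of 33, 14 were called higher and 4 lower, 54.5% in all against 37.1% of all genes. This count was 9 without Control 1, 7 without Control 2 and 11 or 12 under the 4 scalings, of which 7 or 8 were higher and 4 or 5 lower. TFRC, the transferrin receptor that brings iron into the cell, was at 47.20 and 50.65 FPKM in Control against 55.81 and 70.53 FPKM in siSIRT1. NCOA4, the receptor that delivers ferritin to autophagy, was at 35.73 and 35.42 FPKM in Control against 41.18 and 44.68 FPKM in siSIRT1. TFRC and NCOA4 had adjusted p of 0.0259 and 0.0153 by limma, and neither was called under the 4 scalings (0.0605 to 0.113). Over the alternatives with all libraries the adjusted p ran from 0.000366 to 0.124 for TFRC and from 0.0034 to 0.098 for NCOA4. TFRC was also lost without Control 1 (0.117) or siSIRT1 2 (0.0707), and NCOA4 without Control 1 (0.0989) or Control 2 (0.117). IREB2, an iron regulatory protein, was at 10.67 and 9.74 FPKM in Control against 7.01 and 10.18 FPKM in siSIRT1 and did not pass, except without siSIRT1 2 (adjusted p = 0.0159). FBXL5, the iron-sensing adaptor that degrades IREB2, had an adjusted p of 0.0374 for a log2 fold change of -0.38, which was not called without Control 1, Control 2 or siSIRT1 1 (0.0807 to 0.245).

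Transport and export genes were called on both sides. TFR2, a second transferrin receptor, and FLVCR1, a transporter linked to heme export, rose by 0.55 and 0.52 on the log2 scale, with adjusted p of 0.0066 and 0.00787 by limma. SLC25A37, the mitochondrial iron importer, fell from 19.6 ± 0.877 to 12.6 ± 0.785 FPKM (adjusted p = 0.000888). CP, the ferroxidase ceruloplasmin, fell from 1.98 ± 0.141 to 0.95 ± 0.141 FPKM (adjusted p = 0.0091), which was 0.06 without Control 1.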

How the data were processed

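RNA-seq was made from 4 PANC-1 libraries. Per library, the authors deposited a single table of gene-level FPKM, rounded to 2 decimals, and no further scaling is stated. The submitters' processing notes list Bowtie2, HISAT, RSEM and ChIPseeker, without role or version. The genome build and the assignment of shared reads are not given in the sources used here, nor is a strand setting. All FPKM columns were mapped to a sample by their own file.

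Values were tested as log2(FPKM + 1) with limma 3.58.1 in R 4.3.3 (lmFit, eBayes with trend, two-sided, Benjamini-Hochberg over the 12191 genes whose mean reached 1 FPKM, threshold 0.05). This scale understates the change of weakly expressed genes. Errors of fold changes are SE and of means SD (n = 2). With 2 libraries a group, an exact permutation test cannot go below p = 0.333. The script was tested on simulated data.

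The members and lists were chosen with earlier results of these data known. Genes named are SIRT1, the 10 members, 12 preset pathway genes and, per list, up to 3 called rises and 3 called falls of largest size. ABCC2, ABCG2 and TXNRD2 are given in addition to this rule, since they went opposite to named genes of their kind. A result that this rule names is not reported here. Gene pairs for ratios were chosen after their values were seen.

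Depth was estimated from the read steps of 73 to 98 single-exon genes a library. Reads behind a gene follow from depth and its canonical transcript length and are approximate, and counting errors cover counting only. The 425 genes at 0 in all libraries were never tested. Alternatives were a pseudocount of 0.1, no filter, quantile, equal-sum, median-of-ratios and upper-quartile scaling, the replicate number as a block, no trend, and each library left out. Names and windows came from RefSeq (GRCh38.p14), which matched 16846 identifiers.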

Additional observations from a re-analysis of the deposited data

How the results depend on the processing

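SIRT1 was called in every fit, with log2 fold changes of -2.37 to -1.90. Over the 10 genes and 12 alternatives, 91 of 120 outcomes kept direction and side of the threshold, 13 lost a call, 8 gained one and 8 changed sign. The number of the 10 genes called was 3 with a pseudocount of 0.1 and under median-of-ratios and upper-quartile scaling (NQO1, GCLM and TXNRD1 each time), 4 under quantile (with FTL) and equal-sum scaling (with FTH1), 2 without the trend (GCLC and GCLM) and 1 with no filter on low values, where 16453 genes shared the adjustment. Of all genes tested, 33.4% to 36.9% were called with that pseudocount or under the 4 scalings. Without the trend 32.8% of all genes were called, and with no filter 21.5%. With the replicate number as a block, 6 of the 10 and 5393 of all genes were called. This added KEAP1 (adjusted p = 0.0385 by limma), FTH1 (0.00704) and FTL (0.00328). The libraries share only a number, since no label names a common day or batch, and the deviations of same-numbered libraries correlated by 0.123 over genes, so this pairing was not used.

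Leaving out 1 library, with a lone sample assumed to vary like the other group, gave 0 to 4 of the 10 genes and 2691 to 4608 of all genes. The lists gave 5 to 11 regulators, 8 to 9 glutathione genes, 8 to 15 thioredoxin genes, 6 to 9 NADPH genes, 1 to 4 superoxide genes, 13 to 21 detoxification genes and 7 to 21 heme and iron genes. Superoxide genes were 5 under quantile, median-of-ratios and upper-quartile scaling. Heme and iron genes were 9 with no filter and 11 under equal-sum and upper-quartile scaling. The cause of these moves was not tested.

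Among the genes named by the rule and the alternatives run, the log2 fold change took the opposite sign in SRXN1, HMOX1, BACH1 and GPX4 only. SRXN1 was at -0.046 (quantile), -0.029 (equal sums), -0.053 (median-of-ratios) and -0.046 (upper-quartile), and it ran from -0.050 to 0.109 when 1 library was left out. In the same way HMOX1 ran from -0.066 to 0.008, BACH1 from -0.136 to 0.340 and GPX4 from -0.072 to 0.003. With no filter on low values, calls of RBX1 (adjusted p = 0.0639), FLVCR1 (0.0501), FBXL5 (0.0951), ALDH1L2 (0.0658) and TFRC (0.124) were also lost. Precision is limited by 2 libraries a group, at an estimated 8710000 to 9090000 reads each. Counting error at the lowest value adds to this for GCLC (7.69%), GCLM (6.21%), HMOX1 (6.07%) and SRXN1 (6.01%).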
